A study of Mus musculus with 12 samples.

Results

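The genes followed here code for proteins that sit on hepatic lipid droplets, for the lipase that opens them and for the channels through which the released glycerol passes. They were chosen by name, for what their proteins are known to do and with earlier results of these data known, and are the perilipins Plin2, Plin4 and Plin5, the CIDE genes Cidea, Cideb and Cidec, the lipase gene Pnpla2, and the aquaglyceroporin genes Aqp3, Aqp7 and Aqp9. All 10 had a probe on the array, and 9 of them were among the 16915 genes that could be tested. Aqp3 was left out because its signal was not well above background on any array.

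Liver RNA came from 6 Floxed and 6 LKO mice, all of them male, of the C57BL/6 strain, 30 weeks old and fed chow with 20% casein. Floxed mice were homozygous for a loxP-flanked allele of Phgdh (Phgdh flox/flox), the gene of the first enzyme of de novo serine synthesis, and LKO mice were littermates that carried the same alleles plus a Cre transgene driven by the albumin promoter (Alb-Cre). The controls thus also carried the floxed alleles, and no Cre-only mice were among the samples. Albumin-driven Cre acts in hepatocytes, so the other cells of the LKO liver kept their Phgdh. Each mouse was read on 1 single-color Agilent array, and p-values measure the spread between these mice.

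A lipid droplet is a core of triglyceride and sterol ester inside a phospholipid monolayer, coated with proteins that decide how fast the core is filled and emptied. Perilipins shield the surface, CIDE proteins gather where droplets touch and move lipid from the smaller into the larger droplet, and the lipase PNPLA2 (ATGL) takes the first fatty acid off each triglyceride. When the glycerol backbone is free, it crosses membranes through aquaglyceroporins. Fat cells release it mainly through AQP7, and hepatocytes take it up from the blood mainly through AQP9 for gluconeogenesis and triglyceride synthesis.

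The 12 arrays lay on 3 slides, each scanned as a unit. Slide 1 held Floxed 1 to 4, slide 2 held Floxed 5 and 6 with LKO 1 and 2, and slide 3 held LKO 3 to 6, so slide 2 alone compares the genotypes within a batch. Between 21614 and 24252 probes per array were well above background. All 8 hepatocyte markers were in the fit and none was called, though Serpina1a had the same normalized value on every array (SD 0) and could not have been called. On the log2 scale the deleted gene, Phgdh, ranged from 4.81 to 5.5 in Floxed mice, and in mice labelled LKO it was 5.07 in LKO 1, 5.30 in LKO 2 and 4.23 to 4.66 in the other 4. LKO 1 and LKO 2 therefore lay inside the Floxed range, and Floxed 5 and 6 of the same slide had 5.15 and 5.33. The comparisons were also made without LKO 1 and LKO 2. All LKO mice left are then on slide 3, which holds no Floxed mouse, so genotype and slide cannot be told apart in those estimates. Whether the probe lies in the deleted exons was not examined, so its signal need not measure the loss of Phgdh. The study itself reported the null allele in LKO liver by PCR. It also reported Phgdh mRNA and protein there as reduced but not abolished. The log2 fold change of Phgdh was -0.48 (SE 0.177, unadjusted p = 0.0179, adjusted p = 0.451 in limma).

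Of the 9 tested members 2 were called, the channel gene Aqp7 and the droplet coat gene Plin5, both higher in LKO mice, and 7 were not. A gene was called at an unadjusted limma p below 0.05. Over all tested genes 8.35% were called in either direction, 4.92% as higher and 3.43% as lower in LKO mice. That split moved with the scaling, from 832 higher and 581 lower to 1127 higher and 316 lower with 75th percentile scaling, under which Aqp7 and Plin5 were again the called members. No tested gene reached an adjusted p below 0.05, whereas 1413 had an unadjusted p below that value, and the lowest adjusted p was 0.132 (limma, Benjamini-Hochberg). Without LKO 1 and LKO 2, 1 member was called, beside 2172 of all tested genes. With the slide as a fixed block, an estimate that comes from slide 2 alone, none was called, beside 317 of all tested genes. With the slide as a random block (estimated correlation -0.0656, shared by all genes) Aqp7 and Plin5 were called, beside 1925 of all tested genes. That correlation is negative and the SE fell, for Aqp7 from 0.236 to 0.221. The random block therefore does not remove differences between slides. No member had groups that did not overlap, against 0.296% of genes. By sign alone, 7 members had a higher mean in LKO mice and 2 a lower one, with a median log2 fold change of 0.13 beside -0.0035 over all tested genes. In bulk liver, fewer cells of a type and less RNA per cell cannot be told apart.

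**Figure D1:**
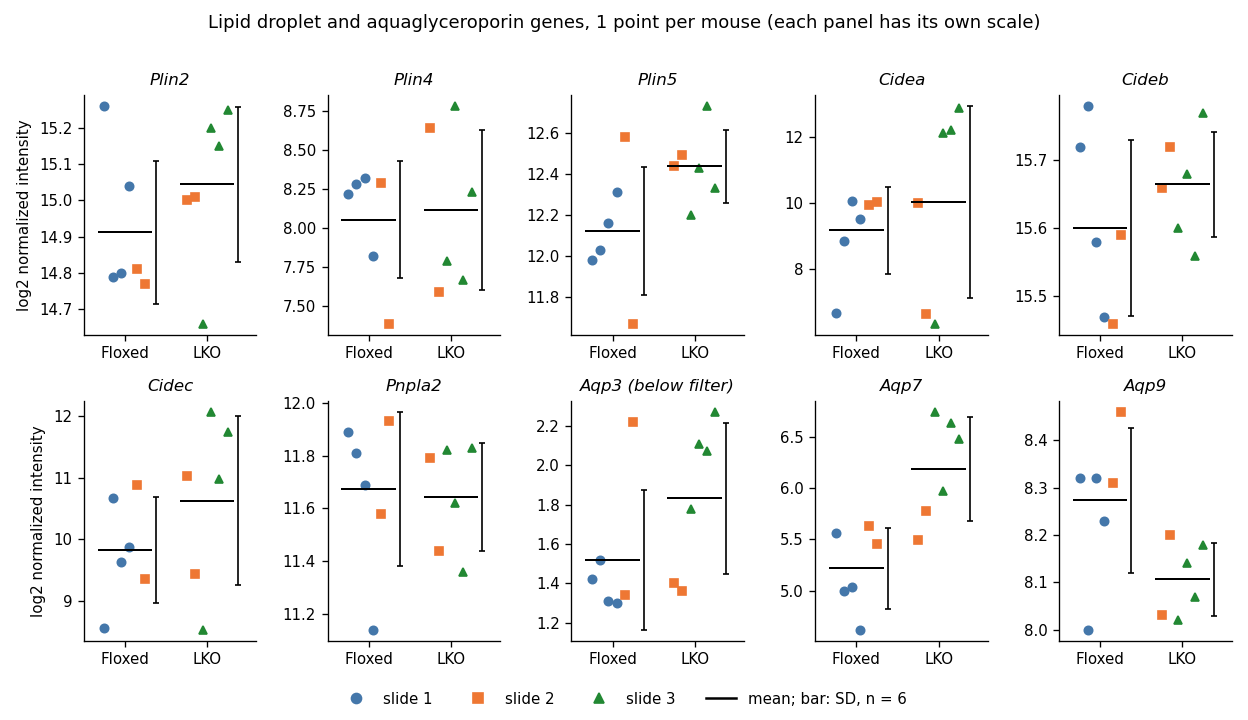
Log2 normalized intensity (y axis) of the 10 genes in each mouse, by genotype (x axis), 1 point per mouse, with the slide given by color and shape. Horizontal lines are means and vertical bars the SD of 6 mice. Aqp7 lies higher in the 4 LKO mice of slide 3 than in any other mouse, Cidea is spread from 6.34 to 12.87, and Aqp3 was not well above background in any mouse.

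Plin2, the perilipin that coats droplets in nearly every cell that stores fat and is degraded when no lipid binds it, had a log2 intensity of 14.77, 14.80 and 15.26 (lowest, median and highest) in Floxed mice and 14.66, 15.08 and 15.25 in LKO mice. The groups overlapped over nearly their whole ranges, and both the lowest and the second highest mouse were LKO. LKO mice differed by 0.13 on the log2 scale (SE 0.117, 95% CI -0.12 to 0.39, adjusted p = 0.896 in limma). It was 0.06 with normexp background correction, 0.22 within slide 2, and 0.09 to 0.21 on leaving out 1 mouse.

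Plin4, a perilipin best known from fat cells and muscle, had values of 7.39, 8.25 and 8.32 (lowest, median and highest) in Floxed mice and 7.59, 8.01 and 8.78 in LKO mice. The lowest mouse was Floxed 6 and the highest LKO 4, and the other LKO mice but LKO 1 lay inside the Floxed range. The log2 fold change was 0.06 (SE 0.234, 95% CI -0.44 to 0.57, adjusted p = 0.982 in limma), with 0.27 within slide 2. It turned to -0.04 when the Floxed mice of slide 1 were set against the LKO mice of slide 3, and ranged from -0.07 to 0.17 on leaving out 1 mouse.

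Plin5, the perilipin of oxidative tissues, ties droplets to mitochondria and holds back PNPLA2 until lipolytic signals release the block. It is the neighbor of Plin4 on chromosome 17. Its log2 intensity was 11.67, 12.10 and 12.58 (lowest, median and highest) in Floxed mice and 12.20, 12.43 and 12.73 in LKO mice. Floxed 5 lay above 5 of the 6 LKO mice, whereas the other 5 Floxed mice lay at or below 12.31. Plin5 rose by 0.32 on the log2 scale, or 1.25-fold (SE 0.138, 95% CI 0.02 to 0.62, unadjusted p = 0.0389, adjusted p = 0.564 in limma). The exact permutation test over all arrangements of the mice gave p = 0.0519 (two-sided). Within slide 2 the difference was 0.35 with 2 mice a group, with unadjusted p = 0.209 in limma for the slide as a fixed block and 0.0263 as a random block. The call was lost on leaving out any of 8 single mice, namely Floxed 1 (0.29), 2 (0.30), 3 (0.33) or 6 (0.23) and LKO 1 (0.32), 2 (0.31), 4 (0.32) or 5 (0.26), and the log2 fold change ranged from 0.23 to 0.41 over all 12 omissions. Without both LKO 1 and LKO 2 it was 0.30 (unadjusted p = 0.0972).

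The 250 bases upstream of a Plin5 transcript start are printed because Plin5 was called and the window holds AGGTCA, the 6-base motif of nuclear receptors, which PPAR and RXR bind as a direct repeat. Windows of the same size upstream of 13 transcript starts of 9 members were searched on both strands (as AGGTCA or TGACCT), and 4 of these 13 windows held the motif, 1 each of Plin2 and Plin5 and 2 of Aqp7 that overlap. Cidea was left out of this search. Of 32851 such windows of all genes, 14.0% held the motif. The window is chr17:56117549-56117798 on the minus strand (GRCm38.p6, RefSeq), written 5′ to 3′ with the motif in capitals, which starts 170 bases before the transcript start.
Plin5: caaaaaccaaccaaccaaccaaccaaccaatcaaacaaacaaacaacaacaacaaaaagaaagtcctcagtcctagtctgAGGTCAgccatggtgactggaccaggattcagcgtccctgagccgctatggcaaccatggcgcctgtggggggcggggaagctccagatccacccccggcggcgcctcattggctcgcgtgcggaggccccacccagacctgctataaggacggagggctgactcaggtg

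The CIDE genes differed most in how far they varied between mice. Cideb, the CIDE gene of hepatocytes, whose protein also acts in the lipidation of VLDL, was steady, with log2 values of 15.46, 15.59 and 15.78 (lowest, median and highest) in Floxed mice and 15.56, 15.67 and 15.77 in LKO mice. All LKO values lay inside the Floxed range. LKO minus Floxed came to 0.06 on the log2 scale (SE 0.0762, 95% CI -0.10 to 0.23, adjusted p = 0.95 in limma). It was 0.14 with normexp background correction and 0.16 within slide 2. A second probe gave a difference of 0.02 (exact permutation p = 0.866, two-sided). Its range over 12 mice was 1.40-fold, and that of the first probe 1.25-fold.

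Cidea is known for the very large droplets of fat cells and of the steatotic liver. It had the widest spread between mice of a genotype of the 16894 tested genes with a value on every array. Its within-genotype SD was 2.26 on the log2 scale beside a median of 0.222. In Floxed mice 1 to 6 the log2 intensity was 6.66, 8.83, 10.07, 9.51, 9.94 and 10.02, and in LKO mice 1 to 6 it was 9.99, 6.63, 6.34, 12.12, 12.20 and 12.87. The values fell into 3 sets, a low one with Floxed 1, LKO 2 and LKO 3, a middle one with 5 Floxed mice and LKO 1, and a high one with LKO 4, 5 and 6. The highest mouse was 91.9-fold above the lowest, and both of these were LKO mice of slide 3.

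This spread is larger than any difference between the genotypes. The means were 9.17 ± 1.32 in Floxed and 10.03 ± 2.91 in LKO mice (SD, n = 6 each), and the log2 fold change was 0.85 (SE 1.15, 95% CI -1.62 to 3.33, adjusted p = 0.954 in limma). Within slide 2 it was -1.67, with LKO 2 in the low set, and without LKO 1 and LKO 2 it was 1.71. Leaving out 1 mouse moved it from 0.29 (without LKO 6) to 1.59 (without LKO 3). The 75th percentile of the raw intensity was 341 on the array of LKO 3 and between 239 and 427 on those of LKO 4, 5 and 6.

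Cidec (Fsp27), the CIDE gene whose protein is needed for the single large droplet of white fat cells and which is induced in steatotic liver, had log2 values of 8.55, 9.75 and 10.89 (lowest, median and highest) in Floxed mice and 8.53, 11.00 and 12.07 in LKO mice. The lowest and the highest mice, LKO 3 and LKO 4, were 11.6-fold apart. Its SD of 1.15 had rank 45 of the tested genes with a value on every array. On the log2 scale the genotypes differed by 0.80 (SE 0.584, 95% CI -0.46 to 2.06, unadjusted p = 0.194, adjusted p = 0.849 in limma), with 0.11 within slide 2. Cidec was called when LKO 3 was left out (1.22, unadjusted p = 0.0295), and at the other end the value was 0.51 without LKO 4 (unadjusted p = 0.39). A second probe was not well above background in Floxed 1, where its value is only a bound, and read 4.11 to 5.84 in the other Floxed mice and 4.39 to 7.34 in LKO mice.

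**Figure D2:**
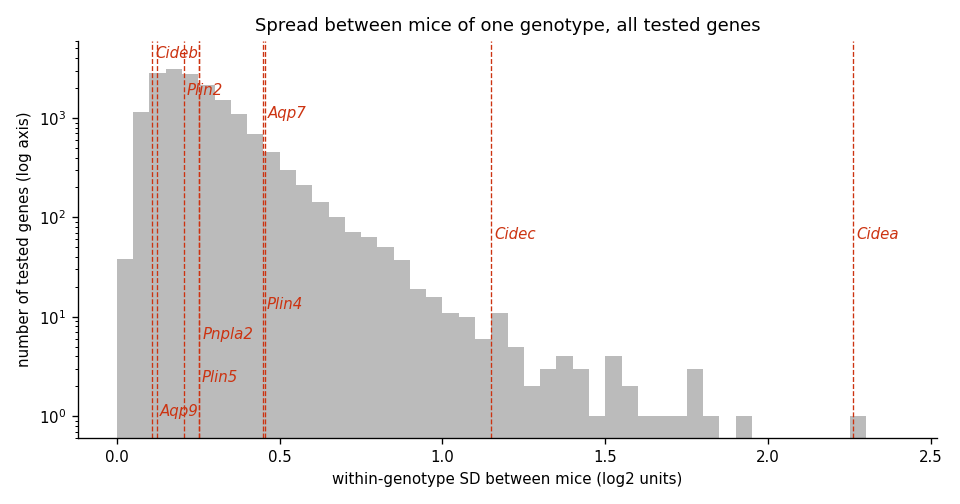
Number of tested genes (y axis, log axis) by the within-genotype SD between mice in log2 units (x axis), in gray bars, with the 9 tested members as dashed lines. Cidea stands at the far right with 2.26, Cidec at 1.15, and the other 7 between 0.107 and 0.454.

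Cidea and Cidec were low and high in much the same mice. In the 3 mice of the low Cidea set Cidec was 8.53 to 9.43, in the 6 of the middle set 9.35 to 11.03, and in the 3 of the high set 10.98 to 12.07. Since the Cidea values fall into separate sets, no test of a correlation over all mice is given. Inside the middle set there was no relation that could be measured (Pearson r = -0.25, permutation p = 0.694; Spearman rho = -0.43, permutation p = 0.417; n = 6). The likeness therefore rests on the low and the high set.

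The genes whose log2 values were most like those of Cidea, after the genotype means were removed, were Gprc5b (Pearson r = 0.909), Fitm1 (r = 0.907) and Slc25a5 (r = 0.9), over 12 arrays. Fitm1 codes for a protein of the endoplasmic reticulum that binds triglyceride and helps droplets to form. It was 10.15 to 10.68 in the 3 mice low in Cidea and 11.30 to 11.48 in the 3 high ones, with the others between them. Those most like Cidec were Ddhd2, a triglyceride and phospholipid hydrolase (r = 0.888), Gprc5b again (r = 0.871) and Uox, the urate oxidase gene (r = 0.871). These were the highest of all tested genes with a symbol and a value on every array, chosen for their likeness, so that they are a description. The r values for Cidea also rest on the same separate sets of mice.

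**Figure D3:**
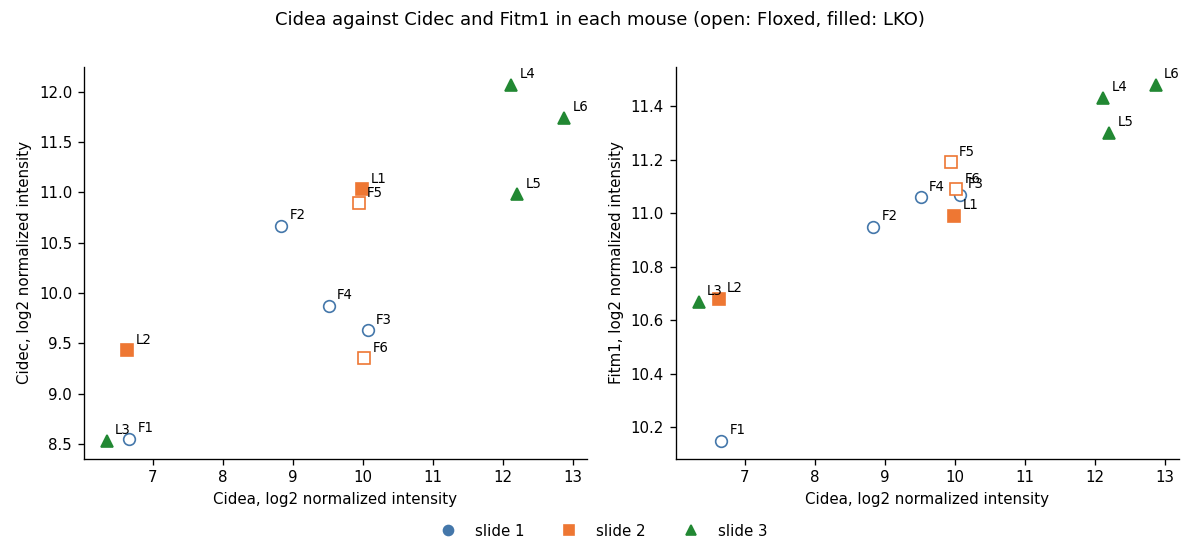
Log2 normalized intensity of Cidea (x axes) against that of Cidec (left) and Fitm1 (right, y axes), 1 point per mouse, labelled F for Floxed and L for LKO with the mouse number, with the slide given by color and shape. LKO 4, 5 and 6 stand at the upper right and Floxed 1, LKO 2 and LKO 3 at the lower left of both plots.

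Cidea, Cidec and Plin4 are also genes of fat cells, and the adipocyte markers were read beside them. Of 11 markers 5 were in the fit, with none called, and their summed intensity was 176000 to 223000 in Floxed and 177000 to 242000 in LKO mice. That sum is carried by Car3 and Thrsp, which liver itself expresses strongly. Of the markers that define fat cells, Lep and Slc36a2 were not well above background on any array, Plin1 was so on 1 array (LKO 5) and Ucp1 on 1 (Floxed 6). Adipoq passed on 3 arrays (Floxed 5, LKO 4 and LKO 6), at log2 values of 2.05 to 3.71 over all 12. It was 3.20 to 3.71 in the mice highest in Cidea and 2.66 to 2.74 in the mice lowest in it. Retn, well above background on 10 or 11 arrays by its 2 probes, was 5.52 to 6.35 in the high Cidea set and 3.16 to 4.23 in the low one, with 3.18 to 5.87 in the middle set. Thrsp, a lipogenic gene of liver as well, was 16.02 to 16.51 in the high set, 13.65 to 15.41 in the low set and 14.16 to 16.47 in the middle set. Fabp4 was 9.28 to 9.82 in the high set and 8.96 to 9.26 in the low set. Cfd overlapped between them (9.70 to 10.95 and 9.17 to 10.54), as did Lipe (3.94 to 4.47 and 3.92 to 4.69), and Car3 was 16.99 to 17.21 in the high set and 17.24 to 17.30 in the low set. The high set therefore lay above the low set in Adipoq, Retn, Thrsp and Fabp4 and below it in Car3. The gap was small in Fabp4 (9.28 against 9.26) and Car3 (17.21 against 17.24). All mice of the high set were LKO mice of slide 3, whereas the low set held both genotypes and all slides. Differences between these sets thus cannot be told apart from genotype and slide. The middle set spanned 2.05 to 3.47 in Adipoq, 9.25 to 9.83 in Fabp4 and 16.87 to 17.44 in Car3. Its range thus overlapped those of both other sets in these markers. In Adipoq, Floxed 2, 3 and 4 and LKO 1 (2.75 to 2.98) lay between the 2 other sets. Floxed 5 (3.47) lay in the range of the high set and Floxed 6 (2.05) below the low set. Adipoq was not well above background in any mouse of the low set, nor in LKO 5. The part of fat cells in the spread of Cidea and Cidec was not tested.

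For Cidec the 250 bases upstream of a transcript start are shown as those of the most variable member searched, since Cidea was left out. Neither of the Cidec windows held AGGTCA. The window shown is chr6:113435761-113436010 on the minus strand (GRCm38.p6, RefSeq). No base is in capitals, since no motif was found.
Cidec: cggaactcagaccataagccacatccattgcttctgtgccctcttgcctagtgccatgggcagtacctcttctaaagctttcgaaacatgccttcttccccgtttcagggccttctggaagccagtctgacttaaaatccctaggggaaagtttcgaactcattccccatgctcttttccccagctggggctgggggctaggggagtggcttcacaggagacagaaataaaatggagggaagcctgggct

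Pnpla2, whose product ATGL is the main triglyceride lipase of the droplet, had log2 values of 11.14, 11.75 and 11.93 (lowest, median and highest) in Floxed mice and 11.36, 11.71 and 11.83 in LKO mice. All LKO mice lay inside the Floxed range. The log2 fold change was -0.03 (SE 0.139, 95% CI -0.33 to 0.27, adjusted p = 0.986 in limma), with -0.14 within slide 2 and -0.09 with normexp background correction. It changed sign when slide 1 was set against slide 3 (0.02), and ranged from -0.14 to 0.03 on leaving out 1 mouse. Abhd5, the coactivator of ATGL, had a log2 fold change of 0.06 (unadjusted p = 0.621, adjusted p = 0.972 in limma). The gene most like Pnpla2 between mice was Coq10a, of coenzyme Q metabolism (r = 0.942 over 12 arrays, genotype means removed).

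Of 15 tested lipases and their regulators 1 was called as higher (G0s2) and none as lower (median 0.01 on the log2 scale), and of 18 tested genes of droplet coat, formation and growth 1 was called as higher (Hilpda) and none as lower (median -0.01). Both shares, 6.67% and 5.56%, lie below the 8.35% of all genes. G0s2 codes for a small protein that binds ATGL and blocks it. Its log2 intensity ranged from 10.18 to 11.78 in Floxed and from 11.13 to 12.38 in LKO mice, so that the groups overlapped. It rose by 0.73 (SE 0.287, unadjusted p = 0.0251, adjusted p = 0.501 in limma; exact permutation p = 0.0498, two-sided). Hilpda, a hypoxia-inducible droplet protein that also inhibits ATGL, ranged from 7.15 to 7.88 in Floxed and from 7.43 to 7.83 in LKO mice. It rose by 0.29 (SE 0.117, unadjusted p = 0.028, adjusted p = 0.521 in limma), while its other probe gave 0.26 (unadjusted p = 0.0695). Floxed 6, the highest of all mice for Hilpda, was the lowest for Plin5. Plin5, G0s2 and Hilpda come from different lists and were plotted together after their values were seen.

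Both calls were lost on leaving out some single mice and with the slide as a fixed block. That block rests on 2 against 2 mice, and its SE was larger (0.494 for G0s2 and 0.205 for Hilpda). The lost calls there do not show a dependence on the slide. Within slide 2 the differences were 0.47 for G0s2 and 0.26 for Hilpda, and with the slide as a fixed block p was 0.362 and 0.226, against 0.0147 and 0.0188 as a random block (limma, unadjusted p). Without LKO 1 and LKO 2 they were 0.66 (unadjusted p = 0.0742) and 0.24 (unadjusted p = 0.106). The call of G0s2 was lost on leaving out Floxed 1 (0.53) or 2 (0.62) or LKO 2 (0.65), 4 (0.67) or 6 (0.63). That of Hilpda was lost without Floxed 1 (0.27), 2 (0.27), 3 (0.27) or 5 (0.24) or LKO 1 (0.26). Between mice Plin5 ran against Pnpla2 (Pearson r = -0.62, permutation p = 0.0312; Spearman rho = -0.72, permutation p = 0.0111; n = 12), and r was -0.45 without Floxed 6 and LKO 5, the 2 mice farthest from the median of Plin5. Centered on genotype and slide r was -0.72. Of 36 pairs of members, 28 did not involve Cidea, and none of these had an adjusted p below 0.05 by r (0.561 for Plin5 and Pnpla2) or by rho (0.2), whereas 1 by r and 2 by rho had an unadjusted p below it.

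**Figure D4:**
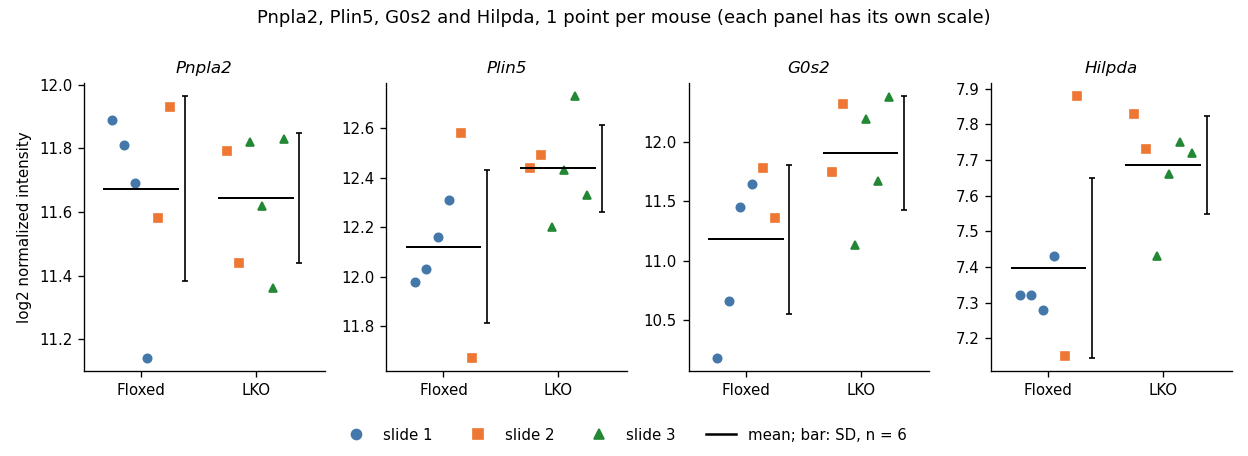
Log2 normalized intensity (y axis) of Pnpla2, Plin5, G0s2 and Hilpda by genotype (x axis), 1 point per mouse, with the slide given by color and shape, the mean as a line and the SD of 6 mice as a bar. Pnpla2 has a log2 fold change of -0.03, and the means of the other 3 are higher in LKO mice with overlapping points.

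Plin5 varied between mice most like Hsp90aa1, a cytosolic chaperone gene (r = 0.879), Acot1, an acyl-CoA thioesterase gene induced in fasting (r = 0.865), and Ndufab1, the mitochondrial acyl carrier protein gene (r = 0.861). In Acot1, as in Plin5, Floxed 5 stood highest of the Floxed mice with 12.40 and LKO 5 highest of the LKO mice with 12.45. Acot1 was chosen for its likeness to Plin5 on these same arrays, so that this is a description.

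Aqp7 was the member with the lowest p. The channel is best known from fat cells, and in these livers its signal was well above background on all 12 arrays. In Floxed mice 1 to 6 the log2 intensity was 5.56, 5.0, 5.04, 4.62, 5.63 and 5.45, and in LKO mice 1 to 6 it was 5.49, 5.78, 6.74, 5.97, 6.63 and 6.48. LKO 1 lay below Floxed 1 and Floxed 5, and the other 5 LKO mice lay above every Floxed mouse. Aqp7 rose by 0.96, or 1.95-fold (SE 0.236, 95% CI 0.45 to 1.47, unadjusted p = 0.00134, adjusted p = 0.273 in limma; exact permutation p = 0.00649, two-sided).

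The difference in Aqp7 followed the slides as well as the genotypes. Its mean was 5.06 in the Floxed mice of slide 1, 5.54 in the Floxed mice and 5.63 in the LKO mice of slide 2, and 6.45 in the LKO mice of slide 3. Within slide 2 the log2 difference was thus 0.09, with unadjusted p = 0.76 in limma for the slide as a fixed block. As a random block, which also uses the contrast between slides and does not remove it, the log2 fold change was 1.04 (unadjusted p = 0.000414). Both LKO mice of slide 2 are also those whose Phgdh lay in the Floxed range, and without them the log2 fold change was 1.24 (SE 0.216, unadjusted p = 0.00013). Slide and the signal of the Phgdh probe cannot be told apart here. Aqp7 is a dim gene, at percentile 18 of the mean levels. Another background correction of the signal (normexp) brought the log2 fold change to 0.42 (unadjusted p = 0.00265 in limma). That correction adds an offset of 50 to the intensities, which lowers log2 differences of dim genes. The size of 0.42 is therefore not directly comparable with 0.96, and how large the change is remains uncertain. The call held on leaving out any single mouse, with 0.84 to 1.1.

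The genes most like Aqp7 between mice were Gdap1l1 (r = 0.932), Olfr456 (r = 0.917) and Nup214 (r = 0.911), over 12 arrays with the genotype means removed. Olfr456, an olfactory receptor gene, was 4.58 to 5.34 on slide 3, and 3.74 to 4.56 in the other 8 mice. Nup214, of the nuclear pore, was 5.80 to 6.40 on slide 3 and at most 5.5 elsewhere. Both were chosen for their likeness to Aqp7 on these same arrays, so their pattern over the slides is a description and no separate result. Of 8 endothelial markers 5 had a higher mean in LKO mice and 3 a lower one, with a median log2 fold change of 0.03. Only 1 of the 8 was called (12.5%, against 8.35% of all tested genes), namely Pecam1. It had a rise of 0.70 (unadjusted p = 0.0015, adjusted p = 0.273 in limma) but a difference of 0.04 within slide 2. With normexp background correction, which used the same offset as for Aqp7, the difference was 0.39. The summed endothelial signal was 15300 to 18000 in Floxed and 15100 to 23100 in LKO mice, and its part in the rise of Aqp7 was not tested.

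For Aqp7, the member with the lowest p, the window upstream of a transcript start is chr4:41048137-41048386 on the minus strand (GRCm38.p6, RefSeq). The nuclear receptor motif, here on the opposite strand as TGACCT and in capitals, starts 49 bases before the transcript start.
Aqp7: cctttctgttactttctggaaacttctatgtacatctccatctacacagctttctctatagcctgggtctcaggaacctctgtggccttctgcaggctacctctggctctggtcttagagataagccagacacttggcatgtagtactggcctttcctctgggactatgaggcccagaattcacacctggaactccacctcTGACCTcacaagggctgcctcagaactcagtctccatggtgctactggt

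Aqp9, the main glycerol channel of hepatocytes, was the member with the largest difference toward lower values. Its log2 intensity was 8.0, 8.32 and 8.46 (lowest, median and highest) in Floxed mice and 8.02, 8.11 and 8.20 in LKO mice. All LKO mice lay below 5 of the 6 Floxed mice and above the remaining mouse, Floxed 2. The log2 fold change was -0.17, or 0.889-fold (SE 0.0818, 95% CI -0.35 to 0.01, unadjusted p = 0.0591, adjusted p = 0.624 in limma), while the exact permutation test gave p = 0.0411 (two-sided). The difference was -0.27 within slide 2, and -0.17 without LKO 1 and LKO 2. Leaving out Floxed 2 gave -0.22 (unadjusted p = 0.0075), and keeping dim probes in the fit brought the unadjusted p to 0.0406. Over all omissions of 1 mouse it ranged from -0.22 to -0.13.

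Aqp3, an aquaglyceroporin of epithelia and the neighbor of Aqp7 on chromosome 4, was well above background on 0 of 12 arrays. Its log2 values, 1.30 to 2.22 in Floxed and 1.36 to 2.27 in LKO mice, are bounds and give no fold change.

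**Figure D5:**
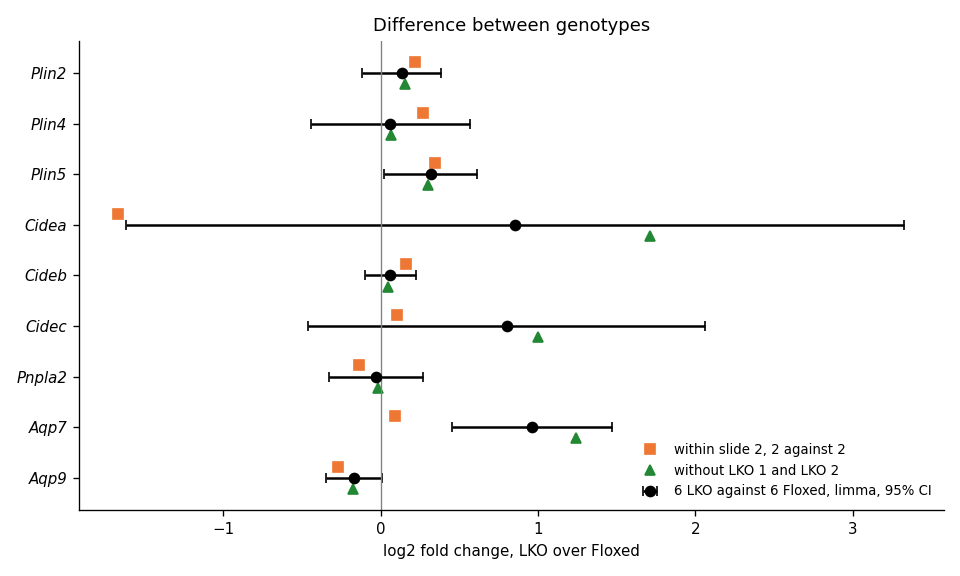
Log2 fold change of LKO over Floxed mice (x axis) of the 9 tested members (y axis). Black points with bars are the limma estimates with 95% CI from 6 against 6 mice, squares the difference within slide 2 and triangles the estimate without LKO 1 and LKO 2. Aqp7 has the square far from the point (0.09 against 0.96), and for Cidea square and triangle lie on opposite sides of 0.

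Beside the lists of Hilpda and G0s2, 14 genes of triglyceride synthesis were tested and none was called (median log2 fold change 0.08). Among 9 tested genes of glycerol use and the other aquaporins 1 was called (11.1%, against 8.35% of all tested genes). This was Aqp8, a water channel of hepatocytes. Its log2 intensity ranged from 14.25 to 15.55 in Floxed and from 15.11 to 16.31 in LKO mice, and it rose by 0.57 (SE 0.228, unadjusted p = 0.0274, adjusted p = 0.515 in limma; exact permutation p = 0.0368, two-sided). Within slide 2 the difference was 0.38, and without LKO 1 and LKO 2 it was 0.65 (unadjusted p = 0.0327). Aqp8 lost its call with 75th percentile scaling (0.56, unadjusted p = 0.0515) and without Floxed 2 (0.54), 3 (0.53) or 5 (0.44) or LKO 5 (0.39), with the slide as a fixed block (unadjusted p = 0.38) and with a replicate block (unadjusted p = 0.0706). The glycerol kinase gene Gk, whose product traps the glycerol that enters, had a log2 fold change of 0.05 (unadjusted p = 0.487, adjusted p = 0.957 in limma).

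Transcription factors known to act on the members were tested for 14 genes, and none was called. Ppara, the receptor of fasting fat oxidation, had a log2 fold change of -0.16 (SE 0.198, adjusted p = 0.949 in limma), and Pparg, which drives Cidea and Cidec in steatotic liver, one of 0.16 (SE 0.178, adjusted p = 0.943). The median over the 14 was -0.08. For 3 other members, the gene most like each between mice was Ndufc1 for Plin2 (r = 0.824), Pou3f1 for Cideb (r = 0.881) and Glg1 for Aqp9 (r = 0.933). Over all the lists, 3 of 70 tested genes were called, beside 8.35% of all tested genes. With the slide as a fixed block 2 of the 70 were called, beside 317 of all 16915 tested genes. They were other genes, the phosphatidate phosphatase genes Lpin1 (-2.36) and Lpin2 (-0.70), both lower by the 2 against 2 mice of slide 2. Over all 12 mice they had -0.45 (unadjusted p = 0.41) and -0.13 (unadjusted p = 0.535), and neither was called. Without LKO 1 and LKO 2, 2 of the 70 were called, Aqp8 and Aqp2 (0.45), beside 2172 of all 16915 tested genes.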

How the data were processed

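The authors deposited, per the file headers, the Feature Extraction intensity of every spot (processed, with background removed) and a table of quantile-normalized intensity per probe. The software is version 10.7.1.1 per the file headers and 9.5.1.1 per the labels. RNA was purified with TRIzol and a Promega system per the labels, and with another kit per the study's methods.

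Members and gene lists were chosen with earlier results of these data known. Control spots (1377 per array) were left out. The processed intensity of 43020 spots was log2-transformed and quantile-normalized over 12 arrays, outlier spots (0.298%) were treated as missing, and spots of a probe were averaged. Probes well above background in at least 0.5 of their spots on all 12 arrays were kept (20404), and the brightest stood for a gene. The study's detection p-value was replaced by this mark. Genes were named through RefSeq accessions, of which 94.2% matched. Genotypes were compared with limma 3.58.1 in R 4.3.3 (lmFit, eBayes), without covariates, called at an unadjusted p below 0.05, with Benjamini-Hochberg adjustment over 16915 genes, and single genes by exact permutation of the 12 mice (two-sided). Correlations used 100000 resamples. The number of arrays limits the precision.

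The genes named were all members, the called genes of the lists, Phgdh, and for each member the 3 genes most like it, of which some are not reported here. Abhd5, Gk, Ppara, Pparg and the marker genes were named after their values were seen. Upstream windows came from RefSeq (GRCm38.p6), and those of Cidea were not searched. The fitting code was tested on simulated data. The pairing of replicate numbers was checked. Alternatives covered scaling, background correction, the authors' table, filters, slide, replicate block, thresholds, the methods' t-test and omission of mice. The comparison of slide 1 with slide 3, the sets of mice by Cidea, the alternatives for single list genes and the count of list genes without LKO 1 and LKO 2 were chosen after seeing the data.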

Additional observations from a re-analysis of the deposited data

Results flagged for a closer look

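Among 22 sets of 6 mice checked for a single mouse far from the rest, 1 stood out, where chance gives 1.1. Cidea in Floxed 1 had a log2 intensity of 6.66, while the other 5 Floxed mice lay between 8.83 and 10.07, so that its gap took 0.635 of the whole range. In the same mouse Cidec (8.55), Fitm1 (10.15) and Gprc5b (3.76) were the lowest of the Floxed mice. Fitm1 and Gprc5b were chosen for their likeness to Cidea on these same arrays, so that their low values there are a description.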

How the results depend on the processing

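The count of called genes (1413) was 2791 with no filter on dim probes, 317 with the slide as a fixed block, 0 at an adjusted p below 0.05, 88 when a log2 change of 1 or more in either direction was asked for and 2172 without LKO 1 and LKO 2, and 1103 to 1837 on leaving out 1 mouse. The count of called members (2) was 0 with the slide as a fixed block, 0 at an adjusted p below 0.05, 0 when a log2 change of 1 or more was asked for, 1 without LKO 1 and LKO 2, 1 for slide 1 against slide 3, and 1 to 3 on leaving out 1 mouse. Cidea turned to -1.67 with the slide as a fixed block. Plin4 turned to -0.0427 for slide 1 against slide 3 and ranged from -0.071 to 0.168 on leaving out 1 mouse, and Pnpla2 turned to 0.024 and ranged from -0.138 to 0.0255. The cause of these changes was not tested.

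The labels give adjacent animal numbers to mice of the 2 genotypes with the same replicate number. Correlations of such mice ran from -0.24 to 0.32, and 2 of 6 Floxed mice were best with their own number. No such pair shared a slide, so this check cannot tell whether the mice were paired. With the replicate block 1428 genes and 2 members were called, Aqp7 (unadjusted p = 0.00187) and Plin5 (unadjusted p = 0.0161, limma). Aqp9 had an unadjusted p of 0.102, and of the list genes Aqp8 was not called (unadjusted p = 0.0706).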
